A study of Mus musculus with 19 samples.

Results

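The genes described here are 41 mouse DNA repair genes, taken by symbol from a table of 48795 genes and read in primary sarcomas induced by a carcinogen. They cover homologous recombination (10 genes), end joining (5), the damage kinases (2), base excision and single-strand break repair (6), mismatch repair (4), nucleotide excision repair (8), translesion synthesis (4) and the Fanconi anemia pathway (2). All 41 were found in the table. The list names genes by pathway and uses no value measured in these tumors as a rule, but it was chosen with results of these data known.

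RNA was sequenced from 19 primary p53/MCA sarcomas, 11 labelled *Rag2*-/- and 8 labelled *Rag2*+/-, each from 1 mouse. *Rag2* encodes a subunit of the recombinase that assembles antigen receptor genes, so *Rag2*-/- mice lack mature T and B cells and keep natural killer cells and myeloid cells, while *Rag2*+/- littermates are immune competent. In both genotypes the gastrocnemius muscle of mice aged 6 to 10 weeks received an adenovirus carrying Cas9 endonuclease and sgp53, a guide RNA against *Trp53*, and then 300 µg 3-methylcholanthrene (MCA) in sesame oil at 6 µg/µl. The tumors were collected untreated, at 70 to 150 mm3. Both groups received the *Trp53* guide and the carcinogen, so no comparison here contrasts tumors with and without MCA, and p-values measure the spread between tumors.

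MCA is metabolized to a reactive form that makes bulky adducts on guanine. Nucleotide excision repair removes such adducts, translesion polymerases copy past those that remain, and mismatch repair and homologous recombination act on errors and breaks left at replication forks. Many genes that work at the fork are known to be transcribed mainly in S phase, while genes of end joining and nucleotide excision repair are known to be transcribed throughout the cell cycle.

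Each value below is log2 of an FPKM, the number of fragments on a gene scaled by its length and by the depth of the library, which had been upper-quartile normalized and to which 0.1 was added first, so that a gene with no fragment stands at −3.32. Depth estimated from the lowest values was 25.3 to 33.7 M fragments on genes in 17 libraries and 5.23 M in S41, a *Rag2*-/- tumor. It could not be read reliably in S56, a *Rag2*+/- tumor. *Rag2* itself, read over the whole gene, was low and was higher in the libraries labelled *Rag2*-/- (mean −0.34) than in those labelled *Rag2*+/- (mean −1.31), by 0.97 (p = 0.0123, two-sided exact permutation test). Its transcript value goes against what a loss of the whole transcript would give, and which part of the gene the allele lacks is not given in the sources used here. The T cell list followed the labels, with 7 of its 12 genes lower in every *Rag2*-/- tumor than in any *Rag2*+/- tumor. Only 4 of these 12 passed the filter on level used in the tests below. Of all genes tested, 0.0156% did not overlap between genotypes. In the B and plasma cell list 2 of 7 genes were lower in this way. Normalized FPKM summed over that list was 8.46 to 54.1 in *Rag2*-/- and 72.1 to 512 in *Rag2*+/- tumors. *Trp53* stood at 4.31 in *Rag2*-/- and 4.52 in *Rag2*+/- tumors (p = 0.551, two-sided exact permutation test), and a whole-gene value does not show whether the gene was edited.

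Several libraries stood apart from the rest. A proliferation score was computed as the mean z-score of 29 cell cycle genes, none of them a repair gene of this report. In 4 tumors it lay below −1, namely S51 (*Rag2*-/-, −2.17), S56 (*Rag2*+/-, −1.46), S59 (*Rag2*+/-, −1.51) and S60 (*Rag2*+/-, −1.44). The other 15 tumors, 10 *Rag2*-/- and 5 *Rag2*+/-, lay between −0.34 and 1.03. The same 4 tumors had the highest summed levels of skeletal muscle genes. Normalized FPKM summed over the 18 skeletal muscle genes, all 18 of which were tested, ran from 124204 to 190732 in these 4 and reached at most 82273 in the others. By the mean z-score of these genes, the skeletal muscle score used below, S52 (*Rag2*+/-) at 1.20 stood above S51 at 1.17. Over all tumors the sum ran from 401 to 124204 with a median of 6171 in *Rag2*-/- tumors and from 2167 to 190732 with a median of 49054 in *Rag2*+/- tumors. In a bulk tumor, fewer cells of a type and less RNA per cell cannot be told apart. The counts and the main values of each comparison are given with and without these 4 tumors.

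The repair genes covered a wide range of levels. *Parp1*, the polymerase that marks DNA breaks with poly(ADP-ribose), had the highest mean level, 4.67 ± 0.21 (SD, n = 19). Next among the highest of each pathway came *Xrcc6*, the Ku70 subunit of the end-joining complex, at 4.12 ± 0.33 (SD, n = 19), and *Ercc1*, part of the nuclease that cuts 5′ of a bulky adduct, at 4.04 ± 0.41 (SD, n = 19). These were expressed in every tumor, with no value below 2.9.

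In the other pathways the highest members were *Polh* among the translesion polymerases, with a mean of 3.20, *Msh6* in mismatch repair, with 2.92, *Rad52* in homologous recombination, with 2.44, *Atm* of the damage kinases, with 1.59, and *Fanca* in the Fanconi anemia pathway, with 1.57. The lowest members were *Rad51b* in homologous recombination, at −0.57, *Prkdc*, the catalytic subunit of DNA-dependent protein kinase, at 0.49, *Ercc6* in nucleotide excision repair, at 0.55, *Mutyh*, the adenine glycosylase, at 0.68, *Fancd2*, at 0.78, *Poli*, at 0.84, *Atr*, at 1.28, and *Exo1*, the exonuclease of mismatch repair, at 1.31. FPKM is per length, which allows a rough comparison of levels between genes. What uneven coverage or reads from overlapping genes add to these levels was not tested. *Rad51b* stood at the floor of −3.32 in tumors of both genotypes, and its mean lay below the level of 0 required for a test, which left 40 of the 41 repair genes in the fits of all tumors.

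**Figure D1:**
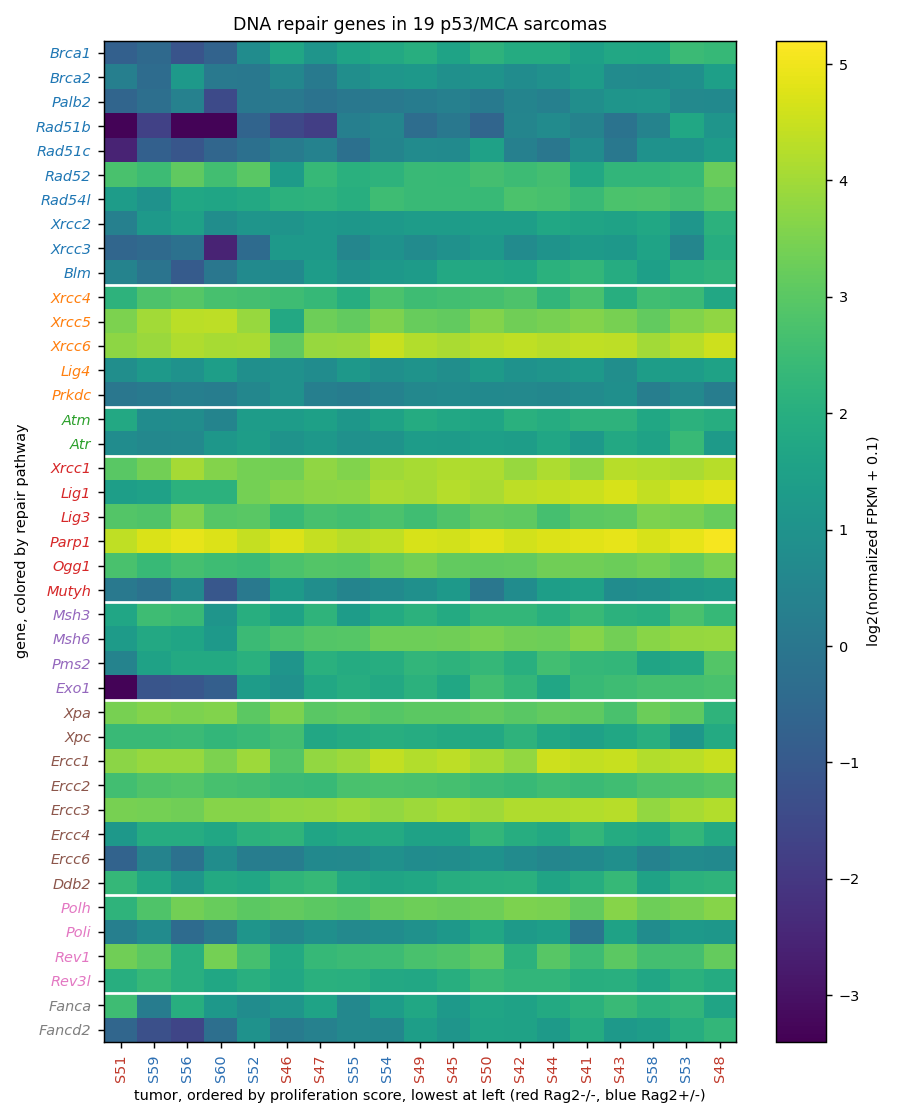
Levels of the 41 repair genes (rows, grouped by pathway) in the 19 tumors (columns, ordered by proliferation score, red *Rag2*-/- and blue *Rag2*+/-), as log2(normalized FPKM + 0.1). *Exo1*, *Lig1*, *Brca1* and *Fancd2* are darkest in the 4 tumors at the left, which have scores below −1, while *Parp1* and *Ercc2* change little from left to right.

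The genes differed in how much they varied. The SD across tumors ran from 0.17 for *Ercc2*, a helicase of the transcription factor TFIIH, to 1.67 for *Exo1*, with a median of 0.42 over the 41 genes beside 0.52 over all 12826 genes tested. By pathway, the median SD was 0.74 in homologous recombination, 0.69 in mismatch repair and 0.85 for the pair of Fanconi genes. It was 0.32 both in end joining and in nucleotide excision repair, 0.35 in base excision repair, 0.38 in translesion synthesis and 0.45 for the damage kinases. With the 4 tumors of low score left out, the median SD was 0.35 over the 41 genes beside 0.37 over all genes tested, 0.45 in homologous recombination, 0.41 in mismatch repair, 0.57 for the Fanconi genes, 0.32 in end joining, 0.27 in nucleotide excision repair, 0.31 in base excision repair, 0.29 in translesion synthesis and 0.34 for the kinases. The extremes were held by few libraries. S48, a *Rag2*-/- tumor with the highest proliferation score, held the highest value of 15 of the 40 tested genes (37.5%, beside 10.1% of all genes), among them *Brca2*, *Lig1*, *Msh6*, *Exo1* and *Fancd2*. S51 held the lowest value of 10 (25% of them, beside 14% of all genes).

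S46, S56 and S60 each held the lowest value of 6 of the 40 genes (15%, beside 11.4%, 18.9% and 7.16% of all genes), and S59 of 5 (12.5%, beside 4.65% of all genes). In S46, a *Rag2*-/- tumor, the 6 were *Rad52*, *Xrcc5*, *Xrcc6*, *Lig3*, *Ercc1* and *Rev1*. The proliferation score of S46 was −0.32, within the range of the other 15 tumors. *Xrcc5*, the Ku80 partner of *Xrcc6*, was at 1.78 in S46, while the next lowest of the 19 tumors, S55, was at 3.13. *Xpc*, which recognizes adducts, was at its highest value of all tumors in S46, 2.63.

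The first comparison asked whether repair genes differed between tumors that grew with and without lymphocytes. No repair gene passed the test between genotypes (limma on all 12826 genes, Benjamini-Hochberg adjusted p from 0.30 upward), and of all genes tested 4 did (0.0312%), all of them lower in *Rag2*-/- tumors. The 2 genotypes overlapped for all 41 repair genes, as they did for nearly all genes, since only 0.0156% of all genes did not overlap. At an unadjusted p under 0.05, 5 repair genes were higher in *Rag2*-/- tumors, where 6.74% of all genes were, and 1 was lower, where 9.56% of all genes were. The difference was positive for 30 of the 40 genes, and its median was 0.19 beside 0.06 over all genes tested. These 6 genes with an unadjusted p under 0.05 became 16 without S51, where 4160 of 12842 genes had one, 10 without S53 or without S58, where 3225 and 3028 of all genes did, and 4 without S56 or without S59, where 916 and 1025 did.

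Those 6 genes came from the damage kinases, homologous recombination and nucleotide excision repair. *Atm*, the kinase that responds to double-strand breaks, ranged from 1.36 to 2.16 with a median of 1.90 in *Rag2*-/- tumors and from 0.48 to 2.13 with a median of 1.25 in *Rag2*+/- tumors. The lowest 3 values belonged to S60, S59 and S56, so the *Rag2*+/- range was set downward by tumors with low proliferation scores. *Atm* differed by 0.59 ± 0.20 (SE, p = 0.00569, two-sided exact permutation test over 75582 relabelings, limma adjusted p = 0.30). Without the 4 tumors the difference was 0.26 (p = 0.141, two-sided exact permutation test over 3003 relabelings).

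*Blm*, the helicase that dissolves recombination intermediates, ranged from 0.44 to 2.29 with a median of 1.78 in *Rag2*-/- tumors and from −0.93 to 2.05 with a median of 0.84 in *Rag2*+/- tumors. It differed by 0.93 ± 0.35 (SE), with p = 0.0185 by the exact permutation test, and by 0.44 without the 4 tumors, with p = 0.130 by the exact permutation test. *Xrcc3*, a paralog of the strand-exchange recombinase, differed by 0.99 ± 0.42 (SE, p = 0.0261, exact permutation test), by 0.63 without S60 alone and by 0.51 without the 4 tumors (p = 0.0796, exact permutation test). Its *Rag2*+/- values ran from −2.53, in S60, to 1.58, and its *Rag2*-/- values from −0.57 to 1.96. For these 3 genes, and for the 3 that follow, the differences were smaller in size once the 4 tumors were left out. Their exact permutation p-values were larger.

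The other 3 genes belong to nucleotide excision repair. *Ddb2*, which binds damaged chromatin, ranged from 1.63 to 2.37 with a median of 2.06 in *Rag2*-/- tumors and from 1.11 to 2.11 with a median of 1.72 in *Rag2*+/- tumors. The difference was 0.39 ± 0.14 (SE, p = 0.00471, exact permutation test) in all tumors and 0.29 (p = 0.0430, exact permutation test) without the 4. *Ercc3*, the other helicase of TFIIH, differed by 0.31 ± 0.12 (SE, p = 0.0176, exact permutation test) and by 0.22 (p = 0.0306, exact permutation test) without them. *Ercc2* was the one repair gene with an unadjusted p under 0.05 and a lower mean in *Rag2*-/- tumors, at 2.57 ± 0.16 (SD, n = 11) beside 2.77 ± 0.09 (SD, n = 8). Its difference was −0.20 (p = 0.00666, exact permutation test), and −0.18 (p = 0.0463, exact permutation test) without the 4. None of the 6 had an adjusted p under 0.05 in the fit across all genes. Without the 4 tumors the unadjusted limma p was 0.0642 for *Ddb2*, 0.0555 for *Ercc3* and 0.112 for *Ercc2*. For *Atm*, *Blm* and *Xrcc3* it was 0.161, 0.118 and 0.0777. Of the exonic bases of *Ercc2*, 42.7% are shared with other genes, mainly *Gm26852* on the opposite strand, and of those of *Ddb2*, 23.8% are shared with *Acp2*. The strand setting of the counting is not given in the sources used here, so reads of these genes and of their neighbours cannot be told apart. The same holds for *Rev1* (26.6% of exonic bases shared, with *Eif5b*), *Lig3* (25.1%, with *Rffl*) and *Rad54l* (15.4%, with *Lrrc41*).

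**Figure D2:**
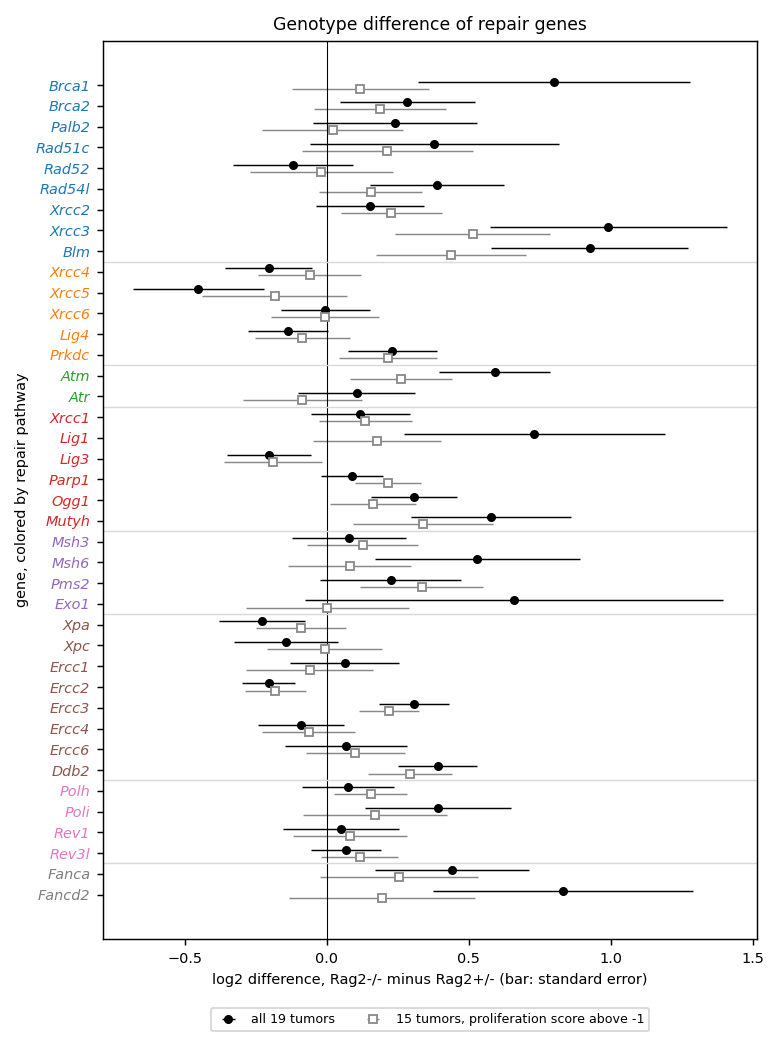
Difference of each repair gene between genotypes (*Rag2*-/- minus *Rag2*+/-, log2 units, bars are standard errors) in all 19 tumors (filled) and in the 15 with a proliferation score above −1 (open). Most filled points lie to the right of 0, and for *Brca1*, *Lig1*, *Exo1*, *Blm* and *Xrcc3* the open points lie closer to 0 than the filled ones.

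By pathway, the median genotype difference was 0.38 in homologous recombination, 0.38 in mismatch repair, 0.64 for the pair of Fanconi genes, 0.21 in base excision repair, 0.35 for the damage kinases and 0.07 in translesion synthesis. It was −0.14 in end joining, where 4 of 5 genes had a lower mean in *Rag2*-/- tumors, and −0.014 in nucleotide excision repair. In the 15 other tumors these medians were 0.17 in homologous recombination, 0.10 in mismatch repair, 0.23 for the Fanconi genes, 0.17 in base excision repair, 0.088 for the kinases, 0.14 in translesion synthesis, −0.06 in end joining and −0.034 in nucleotide excision repair. In that fit no repair gene had an unadjusted limma p under 0.05, where 2.38% of all genes were higher and 2.46% lower, and the median difference was 0.13. With the skeletal muscle score as a covariate, 0 repair genes passed the limma test, where 0.0156% of all genes did. At an unadjusted p under 0.05, 1 repair gene, *Ercc2*, was then lower, where 1.58% of all genes were, and 0 were higher, where 2.53% were. The differences were then 0.10 for *Ercc3*, 0.31 for *Blm*, 0.34 for *Xrcc3*, 0.32 for *Atm*, 0.32 for *Ddb2* and −0.24 for *Ercc2*. Of the 18 skeletal muscle genes, 14 had an unadjusted p under 0.05 and all had a lower mean in *Rag2*-/- tumors, with a median difference of −2.22. What part muscle RNA had in the repair gene differences beyond these values was not tested.

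A wider list of 93 other repair genes was read in the same fit. Of the 90 that could be tested, 0 passed the adjusted test, 10 had an unadjusted p under 0.05 with a higher mean in *Rag2*-/- tumors and 4 with a lower mean, where 6.74% of all genes were higher and 9.56% lower. The median difference was 0.27, beside 0.06 over all genes tested. *Dclre1c*, the Artemis nuclease that opens hairpins in end joining, had a mean of 2.16 in *Rag2*-/- and 1.37 in *Rag2*+/- tumors, and *Wrn*, a RecQ helicase like *Blm*, 2.04 and 1.36. *Fance*, of the Fanconi core complex, had 3.58 and 3.23. In the other direction, *Polb*, the gap-filling polymerase of base excision repair, had a mean of 3.98 in *Rag2*-/- and 4.82 in *Rag2*+/- tumors, *Polk*, a translesion polymerase, 1.83 and 2.37, and *Mus81*, a junction nuclease, 2.61 and 3.13. Each of these 6 had a limma adjusted p of 0.30. Without the 4 tumors of low score, 6 of the 92 genes then tested had an unadjusted p under 0.05 with a higher mean and 1 with a lower mean, where 2.38% of all genes were higher and 2.46% lower. The median difference was then 0.06, beside 0.01 over all genes tested.

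The second comparison asked how repair genes followed the proliferation score among tumors of the same genotype. With genotype in the model, 24 of the 40 repair genes rose with the score and 2 fell (limma, adjusted p under 0.05), where 34.1% of all genes rose and 29.0% fell. The median slope was 0.28 log2 units per unit of score beside 0.04 over all genes. The score and the gene values come from the same libraries, so a slope shows that genes moved together and not that the score set them.

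*Lig1*, *Msh6* and *Exo1* had the lowest p-values of the repair genes that rose. *Lig1*, the ligase that joins Okazaki fragments, rose by 1.10 ± 0.05 (SE) per unit of score with a limma adjusted p of 2.17e-12. Its values were 1.42 in S51, 2.11 in S56, 1.51 in S59 and 2.12 in S60, and from 3.40 to 4.82 in the other 15 tumors. *Exo1* rose by 1.73 ± 0.10 (SE, limma adjusted p = 1.33e-10). It was at the floor of −3.32 in S51, at −1.05, −1.12 and −0.78 in S56, S59 and S60, and from 0.96 to 2.72 in the others. *Msh6*, a subunit of the sensor of single mispairs, rose by 0.85 ± 0.05 (SE, limma adjusted p = 9.83e-11), from 1.22 to 1.78 in the 4 tumors and from 2.46 to 3.87 in the others. For each of these 3 genes the 4 tumors lay below all others.

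The relation held among the 15 tumors outside that cluster. *Lig1* followed the score with r = 0.963 and rho = 0.961 over n = 15 (p = 1e-05 for both by permutation, the smallest p that 100000 permutations can give, and 1.05e-04 for r after adjustment over 21 relations), and with r = 0.949 without the 2 farthest tumors. *Msh6* had r = 0.969 and rho = 0.929 (p = 1e-05 for both by permutation), and 0.950 without the 2 farthest. For *Exo1*, r was 0.874 (permutation p = 2e-05) and rho 0.825 (permutation p = 3.1e-04), and r was 0.753 without the 2 farthest. Among the 10 *Rag2*-/- tumors alone, r was 0.947 for *Lig1*, 0.950 for *Msh6* and 0.847 for *Exo1*. No correlation was computed for the 5 *Rag2*+/- tumors alone. In a fit of the 15 tumors with a slope for each genotype, those 5 had slopes of 0.93 ± 0.14 (SE) for *Lig1*, 1.01 ± 0.13 (SE) for *Msh6* and 0.99 ± 0.26 (SE) for *Exo1*, beside 0.996 ± 0.133 (SE), 0.83 ± 0.13 (SE) and 1.23 ± 0.26 (SE) in the 10 *Rag2*-/- tumors.

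**Figure D3:**
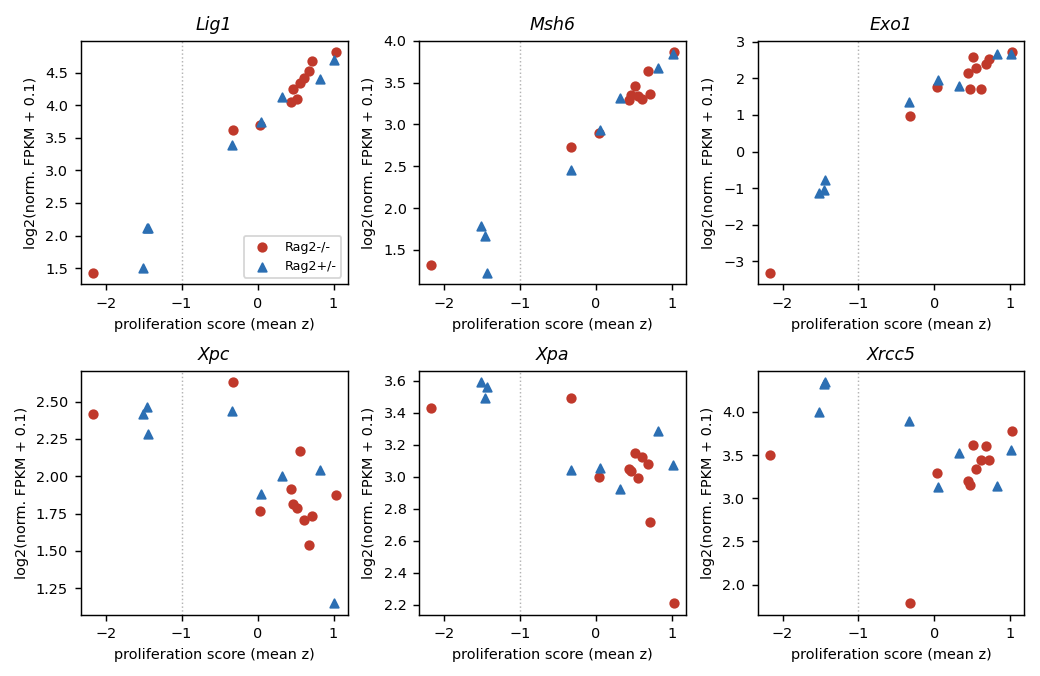
Values of *Lig1*, *Msh6*, *Exo1*, *Xpc*, *Xpa* and *Xrcc5*, as log2(normalized FPKM + 0.1), against the proliferation score (mean z-score of 29 genes) in 19 tumors (red circles *Rag2*-/-, blue triangles *Rag2*+/-, dotted line at −1). *Lig1*, *Msh6* and *Exo1* climb with the score right of the line and are lower in all 4 tumors left of it, where *Msh6* is lowest in S60, while *Xpa* and *Xpc* slope downward and *Xrcc5* is highest in 3 of the *Rag2*+/- tumors left of the line.

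In homologous recombination 8 of the 9 tested genes rose and 0 fell. *Brca1*, the ubiquitin ligase that starts repair at resected ends, rose by 1.08 ± 0.10 (SE) per unit of score, *Rad51c*, a recombinase paralog, by 0.90 ± 0.13 (SE), *Xrcc3* by 0.75 ± 0.16 (SE) and *Blm* by 0.74 ± 0.09 (SE). *Rad52*, the annealing protein, had a slope of −0.09 and did not pass. In the Fanconi pathway *Fancd2*, the protein monoubiquitinated at crosslinks, rose by 0.98 ± 0.12 (SE), and *Fanca* had a slope of 0.09 that did not pass. Both damage kinases rose, *Atr* by 0.33 ± 0.08 (SE) and *Atm* by 0.31 ± 0.08 (SE). In mismatch repair 3 of 4 rose, the exception being *Msh3*. In base excision and single-strand break repair 4 of 6 rose, *Lig1*, *Mutyh*, *Xrcc1* and *Ogg1*, the last of these by 0.28 ± 0.05 (SE).

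In end joining 1 of 5 genes rose, *Xrcc6*, by 0.18 ± 0.07 (SE), and 0 fell. In translesion synthesis *Polh* and *Poli* rose by 0.26 ± 0.06 (SE) and 0.34 ± 0.12 (SE), and *Rev1* and *Rev3l* did not pass. Nucleotide excision repair was split, with *Ercc3*, *Ercc1* and *Ercc6* rising by 0.24, 0.28 and 0.31, and *Xpc* and *Xpa* falling. These last 2 were the only repair genes that fell in the fit of all tumors.

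*Xpc* fell by 0.29 per unit of score, with an SE of 0.07 and a limma adjusted p of 0.00209. It lay between 2.29 and 2.47 in the 4 tumors with low scores and between 1.15 and 2.63 in the others, so the ranges overlapped. Among the 15 other tumors r was −0.702 (permutation p = 0.00335, 0.00642 after adjustment) and rho −0.521 (permutation p = 0.0485), but r was −0.355 without the 2 tumors farthest in score, so that the relation rests on those samples. *Xpa*, the scaffold that verifies damage and places the nucleases, fell by 0.23, with an SE of 0.06 and a limma adjusted p of 0.00436. It lay between 3.43 and 3.59 in the 4 tumors and between 2.21 and 3.49 in the others. Among the 15 others its r was −0.461 (permutation p = 0.0849) and its rho −0.089 (permutation p = 0.752), and among the 10 *Rag2*-/- tumors alone its r was −0.768 (permutation p = 0.0183, 0.0296 after adjustment) and its rho −0.527 (permutation p = 0.123). *Xrcc5*, the next lowest by slope, had −0.12 ± 0.12 (SE, limma adjusted p = 0.40), and among the 15 other tumors its slope turned to 0.54 (limma adjusted p = 0.124), with r = 0.444 (permutation p = 0.102). Among the 10 *Rag2*-/- tumors alone *Xrcc5* had r = 0.860 (permutation p = 0.00182, 0.00528 after adjustment) and rho = 0.794 (permutation p = 0.00915), and 0.784 for r without the 2 farthest. In the 15 tumors with a mutation number, 2 of which have low scores, its slope was −0.28 and passed (limma adjusted p = 0.0343).

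Without the 4 tumors, 23 of 41 repair genes rose and 1, *Xpc*, fell, where 21.5% of all genes rose and 15.7% fell, and the median slope was 0.53 beside 0.06. *Rad51b* passed the filter on level in this fit and rose by 1.79 ± 0.33 (SE, limma adjusted p = 0.00107). *Fanca*, *Lig3*, *Parp1* and *Msh3* rose here and not in the fit of all tumors, and *Xpa* no longer passed, with a slope of −0.29 and an adjusted p of 0.181. *Exo1* rose by 1.11 ± 0.18 (SE) in this fit, *Lig1* by 0.96, *Msh6* by 0.92, *Fancd2* by 1.19, *Blm* by 1.03, *Rad51c* by 0.77 and *Brca1* by 0.73. *Xrcc3*, *Atr*, *Mutyh*, *Pms2*, *Ercc6* and *Poli*, which rose in all tumors, did not pass here, with slopes of 0.25 to 0.58. With the skeletal muscle score as a covariate, 10 of 40 repair genes rose and 0 fell, where 18.4% of all genes rose and 14.9% fell. Those 10 were *Brca1*, *Rad51c*, *Rad54l*, *Blm*, *Xrcc1*, *Lig1*, *Msh6*, *Pms2*, *Exo1* and *Fancd2*. Muscle and proliferation scores ran opposite to each other, with r = −0.696 and rho = −0.750 in the 15 other tumors (permutation p = 0.00367 and 0.00197), and 17 of the 18 muscle genes fell with the proliferation score.

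**Figure D4:**
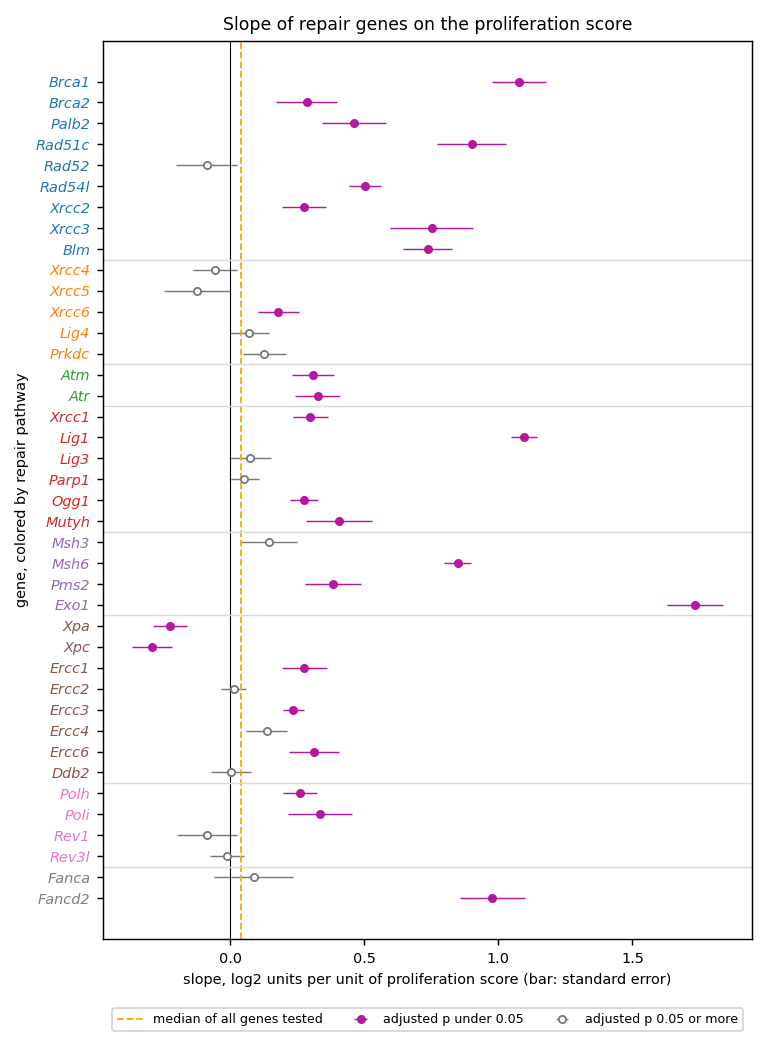
Slope of each of the 40 tested repair genes on the proliferation score with genotype in the model (log2 units per unit of score, bars are standard errors, filled points adjusted p under 0.05, dashed line the median of all genes tested). *Exo1*, *Lig1*, *Brca1* and *Fancd2* lie farthest right, at 0.98 to 1.73, and *Xpc* and *Xpa* are the filled points left of 0.

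The slope on the score differed between genotypes for 1 of the 40 repair genes, *Pms2*, the endonuclease subunit of mismatch repair, which had a steeper slope in *Rag2*-/- than in *Rag2*+/- tumors by 0.72 ± 0.13 (SE, limma interaction term, adjusted p = 0.0368). Of all genes, 0.039% had a steeper and 0.156% a less steep slope in *Rag2*-/- tumors past that threshold. The call did not pass in 10 of the 19 fits that left out 1 tumor. Without the 4 tumors of low score the difference was 1.37 and did not pass (limma adjusted p = 0.0914). In that fit 0 of all 12861 genes passed.

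Among the 93 other repair genes 53 of 90 rose and 10 fell, where 34.1% and 29.0% of all genes did, with a median slope of 0.28, and without the 4 tumors 48 of 92 rose and 2 fell, where 21.5% and 15.7% of all genes did. A list of 15 p53 target genes had 8 of its 14 tested genes falling and 3 rising and a median of −0.40, and without the 4 tumors 5 falling and 1 rising. Both lists were read in the same fit, and the difference between lists was not tested.

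Because many of these genes moved together, their promoters were read for motifs known from cell cycle genes. The RefSeq promoter table holds an entry for 32 of the 41 genes. The 250 bases before each start site were searched on both strands for the E2F octamers TTTCCCGC, TTTGGCGC, TTTCGCGC and TTTGCCGC, for the NF-Y box CCAAT and for the core TTTGAA. An E2F octamer was found in 3 of the 39 promoters of these genes (7.69%), those of *Brca2*, *Msh3* and *Xrcc6*, where 1.86% of all 32851 promoters held one, and for 2 of the 19 risen genes that had an entry. CCAAT was found in 19 of the 39 (48.7%), where 33.8% of all promoters held it, and for 10 of the 19 risen genes. TTTGAA was found in 0, where 16.0% of all promoters held it. The promoter of *Xrcc5*, whose slope did not pass, holds the box with a match starting 169 bases before the gene's start and is not printed. Those of *Msh6*, which rose, and *Xpa*, which fell, hold it too and are shown. They are printed 5′ to 3′ in the direction of the gene on the RefSeq assembly GRCm38.p6, with the box or its reverse complement in capitals. That of *Msh6* is chr17:87974800-87975049 on the + strand, with the match starting 34 bases before the gene's start, and that of *Xpa* is chr4:46196312-46196561 on the − strand, with the match starting 238 bases before it. A match of letters describes the sequence and does not show that a factor binds there.
Msh6: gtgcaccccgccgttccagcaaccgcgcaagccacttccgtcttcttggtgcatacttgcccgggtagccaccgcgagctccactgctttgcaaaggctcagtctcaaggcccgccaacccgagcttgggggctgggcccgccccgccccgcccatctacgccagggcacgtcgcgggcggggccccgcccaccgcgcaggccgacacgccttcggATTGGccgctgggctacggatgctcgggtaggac
Xpa: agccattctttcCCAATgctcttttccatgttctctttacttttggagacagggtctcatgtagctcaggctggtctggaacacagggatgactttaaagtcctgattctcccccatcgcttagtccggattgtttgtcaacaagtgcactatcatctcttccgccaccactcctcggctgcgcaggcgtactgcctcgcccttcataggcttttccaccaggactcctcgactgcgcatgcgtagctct

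The third comparison set the repair genes against the number of nonsynonymous mutations of each tumor, which the study lists for 15 of the tumors, 8 *Rag2*-/- and 7 *Rag2*+/-. These counts were used only as the horizontal variable, on the log2 scale. Of the 40 repair genes tested, 23 rose with mutation number and 3 fell (limma on 12877 genes, adjusted p under 0.05), where 31.5% of all genes rose and 26.1% fell. The median slope was 0.20 log2 units per doubling of the mutation number beside 0.04 over all genes.

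*Exo1* rose by 1.11 ± 0.13 (SE) per doubling, *Lig1* by 0.93 ± 0.08 (SE), *Brca1* by 0.87 ± 0.12 (SE) and *Fancd2* by 0.87 ± 0.11 (SE). *Xpa*, *Xrcc5* and *Xpc* fell by 0.21, 0.21 and 0.20, with limma adjusted p of 0.0190, 0.0328 and 0.0368. Homologous recombination had 7 of 9 rising, the damage kinases 2 of 2, the Fanconi genes 2 of 2 and mismatch repair 3 of 4, while end joining had 1 rising and 1 falling of 5 and nucleotide excision repair 2 rising and 2 falling of 8.

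The same slopes were also read with genotype or a score held. With genotype as a term, 17 repair genes rose and 0 fell, where 25.8% of all genes rose and 22.3% fell. With the skeletal muscle score as a covariate 7 rose and 0 fell, where 9.23% and 6.57% of all genes did. With the proliferation score as a covariate, 0 repair genes and 0 of all genes (0.0%) passed the limma test, and at an unadjusted p under 0.05 1 repair gene, *Lig1*, rose, where 3.6% of all genes did, and 1, *Ercc2*, fell, where 3.13% did. With genotype and the proliferation score together 0 repair genes passed and 1 of all 12877 genes did (0.00777%).

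Only 13 of the tumors with a mutation number had a proliferation score above −1. Among them 0 repair genes and 0 of all genes (0.0%) passed the limma test, and 16 of 41 repair genes had a positive slope with an unadjusted p under 0.05, where 15.2% of all genes did, and 0 a negative one, where 13.1% did. The slope was 0.59 for *Exo1*, 0.78 for *Lig1*, 0.76 for *Brca1* and 0.99 for *Fancd2*. *Lig1* followed log2 mutation number with r = 0.772 (permutation p = 0.00201, 0.00528 after adjustment over 21 relations) and rho = 0.593 (permutation p = 0.0361), and *Fancd2* with r = 0.746 (permutation p = 0.00345) and rho = 0.698 (permutation p = 0.0106). Without the 2 tumors farthest in mutation number r was 0.672 and 0.578. The genes given with r were picked by their p in the fit of 15 tumors, which holds these 13, so these p-values are not independent of the choice. *Exo1* had r = 0.526 (permutation p = 0.0663) and rho = 0.346 (permutation p = 0.245). *Xpc* had r = −0.362 (permutation p = 0.24), *Xpa* −0.183 (permutation p = 0.614) and *Xrcc5* 0.102 (permutation p = 0.736). The proliferation score itself followed log2 mutation number with r = 0.758 (permutation p = 0.00241) and rho = 0.615 (permutation p = 0.0292), and the skeletal muscle score with r = −0.620 (permutation p = 0.0214) and rho = −0.544 (permutation p = 0.0579). Mutation number and the score were not fitted together in these 13 tumors.

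**Figure D5:**
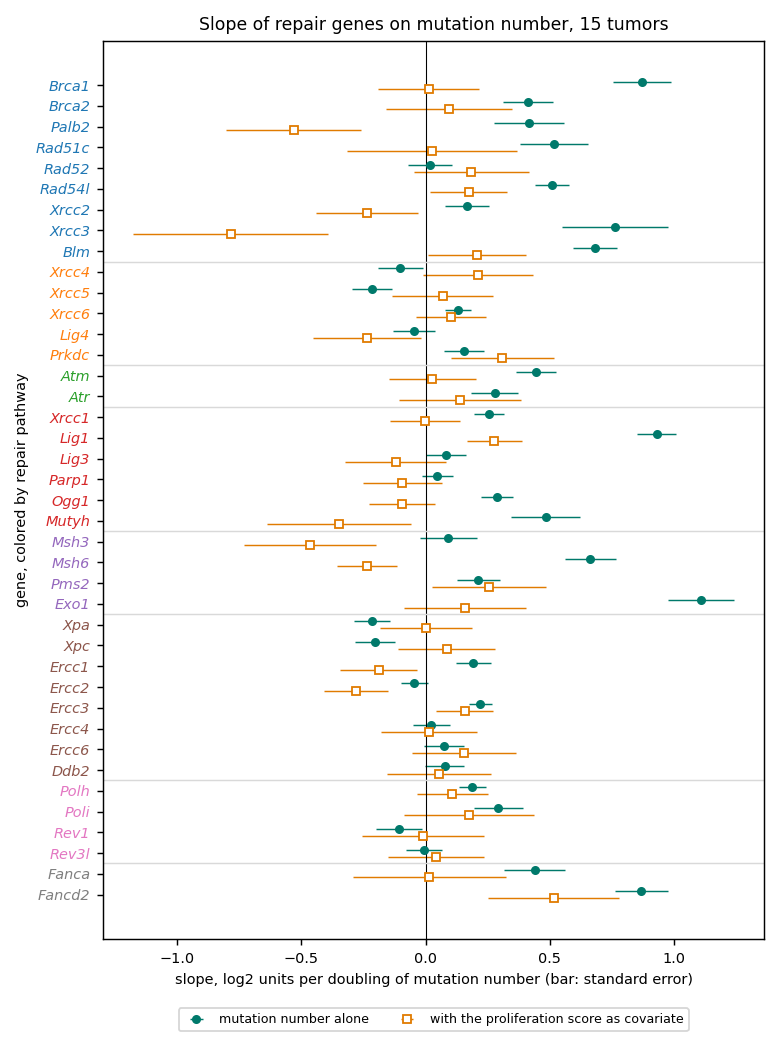
Slope of each of the 40 tested repair genes on log2 mutation number in 15 tumors (log2 units per doubling, bars are standard errors), alone (filled) and with the proliferation score as a covariate (open). The filled points of *Exo1*, *Lig1*, *Brca1* and *Fancd2* lie at 0.87 to 1.11, and with the score held no repair gene passed the adjusted test.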

How the data were processed

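The deposited values are log2 FPKM per gene. To make them, the authors mapped reads in Array Studio (Omicsoft aligner), counted over Ensembl gene models and applied upper-quartile normalization before the log2. A constant of 0.1 had been added, and 0 columns were unmatched to a tumor. Gene symbols were assigned to 48349 of 48795 identifiers. These values are not counts, so limma 3.58.1 (R 4.3.3) with an intensity trend was fitted on genes with a mean log2 value above 0 and adjusted by Benjamini-Hochberg over all genes tested, after a test on simulated data. Exact permutation tests were two-sided, and correlations used 100000 permutations. Depth was estimated from whole multiples of the lowest values, with 74% to 88.1% of low values whole within 0.05 fragments in the 17 libraries. The genes and lists were chosen with earlier results of these data known. Values are given for the genes with an unadjusted p under 0.05 between genotypes, for the highest and lowest mean of each pathway and for the 3 lowest p per direction of each slope; S46, S48 and S51, the other genes with slopes and *Pms2* were chosen after their values were seen. Alternatives changed the tumors, pseudocount, filter, normalization, variance model and covariates. Leaving out the 4 tumors with low scores was chosen after seeing the data. Mutation lists and transplant tumors were not analysed here. Python 3.11.15 with scipy 1.17.1 was used for the permutation tests.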

Additional observations from a re-analysis of the deposited data

Results flagged for a closer look

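*Xpc* in *Rag2*+/- tumors had 1 value far from the rest. S53 stood at 1.15, the nearest of the other 7 tumors at 1.88, and this gap took up 0.558 of the group's range, above the critical value of 0.526 for 8 samples. Chance marks about 1 in 20 groups. All 41 repair genes were examined in this way in the 8 *Rag2*+/- tumors, and the 11 *Rag2*-/- tumors were not. Values far from the rest occur there too: *Exo1* was at −3.32 in S51 and at 0.96 in the next lowest *Rag2*-/- tumor, S46, and *Lig1* was at 1.42 in S51 and at 3.61 in S46.

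*Pms2*, the endonuclease subunit of mismatch repair, had a steeper slope on the proliferation score in *Rag2*-/- than in *Rag2*+/- tumors. It rose by 0.74 ± 0.09 (SE) per unit of score in *Rag2*-/- tumors and had a slope of 0.024 ± 0.093 (SE) in *Rag2*+/- tumors. The difference between the slopes was 0.72 ± 0.13 (SE, limma interaction term, adjusted p = 0.0368 over 12826 genes). Its values ran from 0.44, in S51, to 2.90, in S48, in *Rag2*-/- tumors and from 1.55 to 2.04 in *Rag2*+/- tumors. Over the 19 fits that each left out 1 tumor, the difference ran from 0.67 to 1.11 and passed in 9 of them, with an adjusted p of up to 0.113. It did not pass without any one of S42, S44, S45, S48, S49, S50, S54, S56, S58 or S60. Without the 4 tumors of low score the difference was 1.37 (limma adjusted p = 0.0914), in a fit where 0 of all 12861 genes passed. Without S51 alone it was 1.11, and *Xrcc5*, *Xrcc6*, *Rad52* and *Ercc1* then passed as well, with differences of 1.67, 0.97, 1.19 and 0.94, where 3.84% of all genes had a steeper and 3.73% a less steep slope in *Rag2*-/- tumors past the threshold. Without the 4 tumors the differences of these genes were 1.51, 0.94, 1.30 and 0.91. None of them passed (limma adjusted p = 0.125, 0.124, 0.217 and 0.183), in a fit where 0 of all 12861 genes did.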

How the results depend on the processing

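No repair gene passed between genotypes under any of 31 alternatives, and the 6 genes named for that comparison kept their direction in all 182 of their alternative fits. Over all genes, the 4 calls between genotypes became 15 in the 15 tumors with a mutation number, 34 without a filter on level, 0 at a mean log2 value above 2 and 2 with the skeletal muscle score held. They ran from 3 to 7 with 1 tumor left out in turn, the 7 being reached without S51 and without S56. The 26 repair genes that passed on the proliferation score were 24 rising and 2 falling, beside 34.1% and 29.0% of all genes. With the muscle score held 10 passed, all rising, beside 18.4% of all genes rising and 14.9% falling. At a mean log2 value above 2, 11 of the 20 tested passed, 9 rising and 2 falling, beside 3381 and 2981 of 9644 genes. With quantile normalization 20 passed, 18 rising and 2 falling, beside 4383 and 3452 of all 12826. In the 15 tumors with a mutation number, 23 passed, 20 rising and 3 falling, beside 3988 and 3227 of all 12877. The count ran from 19 to 27 with 1 tumor left out. On mutation number 26 passed, 23 rising and 3 falling, beside 31.5% and 26.1% of all genes. With genotype as a term 17 passed, all rising, beside 25.8% of all genes rising and 22.3% falling. With the muscle score held 7 passed, all rising, beside 9.23% rising and 6.57% falling. At a mean log2 value above 2, 12 passed, 10 rising and 2 falling, beside 3260 and 2678 of 9705 genes. With quantile normalization 19 passed, 16 rising and 3 falling, beside 4000 and 3021 of all 12877. With the proliferation score held, with genotype as well and without the tumors of low score 0 passed. Of all genes 0, 1 and 0 did. The count of repair genes ran from 19 to 26 with 1 tumor left out. Apart from the filter, which tested fewer genes, the cause of these changes was not tested. The slope of *Xrcc5* on the proliferation score reversed to 0.13 with the muscle score held and to 0.54 without the tumors of low score. Slopes on mutation number reversed with the proliferation score held for *Xpa* (0.0033), *Xrcc5* (0.068) and *Xpc* (0.085), with genotype and score held (0.076, 0.10 and 0.085), and for *Xrcc5* without the tumors of low score (0.061). These 3 genes also lost their calls on mutation number without S59 or without S60. Slopes of *Xpa*, *Xrcc5* and *Xpc* were −0.24, −0.28 and −0.25 without S59, and −0.19, −0.14 and −0.20 without S60. In the main fit they were −0.21, −0.21 and −0.20. *Xrcc5* lost its call without S45 (−0.20), and *Xpc* without S43 (−0.20) or S44 (−0.20). On the proliferation score *Xrcc5* passed without S46 (−0.19) and in the 15 tumors with a mutation number (−0.28). No paired analysis was done, because the groups share no replicate numbers and the sample labels name no litter. In S41, at about 5.23 M fragments, low genes such as *Mutyh* are read less precisely.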
